A study of Mus musculus with 16 samples.

Results

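The insulin-like growth factor (IGF) family was followed in mouse lungs after bleomycin, an agent that injures the lung and leads to fibrosis, and after a caveolin-1 blocker. The family comprised 10 genes, chosen by name: the ligands Igf1 and Igf2, the receptor Igf1r, and the binding proteins Igfbp1 to Igfbp7. All spots annotated to them were taken, 20 of 62976 on the array, and all 10 genes were among the 20304 genes tested, out of 20863 named. Igf1 had 10 spots, Igfbp2 had 2 and the others had 1 each.

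Whole-lung RNA of C57BL/6 mice aged 9 to 12 weeks was measured on 16 single-colour (Cy3) Agilent arrays, 1 per sample. Each mouse had a target site blocker (TSB), an oligonucleotide meant to keep microRNAs off a transcript, delivered to the trachea 4 and 2 days before the injury and 4 days after it. The groups were bleomycin with the CAV1 TSB (6 arrays), bleomycin with the control TSB (6 arrays), phosphate-buffered saline (PBS) with the CAV1 TSB (2 arrays) and PBS with the control TSB (2 arrays). Bleomycin was given at 1 unit/kg and the CAV1 TSB at 5 mg/kg. The control TSB's dose and the day of lung collection were not given in the sources used here. Whether every array stands for its own animal is not stated, so p-values refer to the spread between arrays, which may be technical, and the number of arrays, above all the 2 per PBS group, limits the precision.

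IGF-I and IGF-II are secreted growth factors that signal mainly through the tyrosine kinase IGF1R, while the mannose 6-phosphate receptor, encoded by Igf2r, removes IGF-II. The binding proteins hold the ligands in the extracellular fluid and set how much reaches the receptor, and proteases such as the pappalysins release the ligands by cutting binding proteins. In the lung, IGF-I is made by macrophages and mesenchymal cells and has long been studied in fibrosis.

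The deposited values are log2 intensities. They had nearly the same distribution in every array, with medians of 6.51 to 6.52 and minima of 5.39 to 5.41. Genes with a p under 0.05 in limma's moderated test, after Benjamini-Hochberg adjustment over the 20304 genes, are said to be called, and groups whose values did not overlap are said to be separate. Lung identity was checked with 7 lung epithelial markers, which lay above the array's median in every array. Several arrays stood apart from others of their group. Markers of skeletal muscle (12 genes) and stratified squamous epithelium (11 genes) were low in 5 arrays: array 3 of bleomycin with the CAV1 blocker, arrays 2 and 6 of bleomycin with the control blocker, and both of PBS with the CAV1 blocker. The mean log2 signal of the muscle list was 6.91 to 8.25 in these 5 arrays and 9.99 to 12.51 in the other 11. Bleomycin CAV1 blocker array 1 had a macrophage marker level within the range of the PBS arrays. Changes of Igf1, Igfbp3 and Igfbp6 under the CAV1 blocker, and their blocker differences after bleomycin, are given with and without array 1. Their averaged changes and interactions are given with it. Both PBS arrays with the CAV1 blocker are among the 5 low arrays, so no comparison with that group can be made without them. The RNA integrity number was 9 except in arrays 1 and 5 of bleomycin with the control blocker, which had 10. In whole-lung RNA, fewer cells of a type and less RNA per cell cannot be told apart.

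Igf1 rose, and Igfbp3 and Igfbp6 fell, in lungs given bleomycin with the control blocker. These were 3 of the 10 family genes, 1 higher and 2 lower, where 2.41% of all genes tested were called (1.96% higher and 0.448% lower). With the CAV1 blocker the same 3 genes had changes of the same sign and similar size, but no family gene was called, where 0.517% of all genes were (0.345% higher and 0.172% lower). In that comparison 5 of the 10 had an unadjusted p under 0.05, 2 higher and 3 lower, beside 14.8% of all genes. Averaged over both blockers, Igf1, Igfbp3 and Igfbp6 were called, against 5.93% of all genes (4.25% higher and 1.68% lower). The average includes the arrays of the control blocker comparison, so these calls are not independent of those above. The bleomycin and PBS arrays were separate for 3 members under the control blocker, beside 12.6% of all genes (8.55% higher and 4.04% lower), and for 4 under the CAV1 blocker, beside 20.7% of all genes. Over the 10 members the median absolute log2 change was 0.47 for bleomycin under the control blocker, 0.39 when the CAV1 blocker was given and 0.32 averaged, beside 0.14, 0.13 and 0.092 over all genes tested.

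The 250 bases before the annotated start of the 3 genes that were called, 1 higher and 2 lower, are shown here (RefSeq, mouse build GRCm38.p6). Igf1 lies at chr10:87860861-87861110 (plus strand), Igfbp3 at chr11:7213924-7214173 (minus strand) and Igfbp6 at chr15:102143936-102144185 (plus strand). Capitals mark matches on either strand to TATANA or to TGANTCA, and overlapping matches run together. TATANA holds letters of the TATA box, and TGANTCA is a looser form of the AP-1 site, whose central base is C or G.
Igf1: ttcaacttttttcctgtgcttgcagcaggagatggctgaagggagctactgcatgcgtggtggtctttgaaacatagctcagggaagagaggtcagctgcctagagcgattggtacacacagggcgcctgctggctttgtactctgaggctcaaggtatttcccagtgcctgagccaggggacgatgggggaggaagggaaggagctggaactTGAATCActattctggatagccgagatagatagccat
Igfbp3: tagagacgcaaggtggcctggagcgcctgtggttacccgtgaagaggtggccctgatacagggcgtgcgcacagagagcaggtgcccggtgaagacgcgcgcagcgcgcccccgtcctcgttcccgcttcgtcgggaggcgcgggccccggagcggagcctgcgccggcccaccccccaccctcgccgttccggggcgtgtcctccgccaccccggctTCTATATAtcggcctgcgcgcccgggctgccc
Igfbp6: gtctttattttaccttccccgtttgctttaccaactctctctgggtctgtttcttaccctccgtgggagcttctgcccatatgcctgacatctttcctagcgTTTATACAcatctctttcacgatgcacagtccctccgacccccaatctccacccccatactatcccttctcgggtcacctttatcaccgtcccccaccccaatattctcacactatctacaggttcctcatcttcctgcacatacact
The Igf1 stretch holds 1 match to TGANTCA, 31 bases before the start. It reads TGAATCA, with A at its centre, and so is not the AP-1 site itself. A match to TGANTCA occurs in 6.7% of the 32851 mouse promoters in the table at this length. The Igfbp3 stretch holds a pair of overlapping matches to TATANA, the nearest 25 bases before the start, and the Igfbp6 stretch holds such a pair, the nearest 141 bases before the start. A TATANA match occurs in 22.6% of all promoters. The letters GGGCGG (found in 32.7% of promoters) and CAGACA (in 17.1%), those of the GC box and of the SMAD-binding CAGA box, are not in these 3 windows. The Igfbp3 stretch holds 32 CpG dinucleotides, Igf1 holds 5 and Igfbp6 holds 7, and the median over all promoters is 6. No motif searched occurs in all 3 windows, and a match describes the letters alone.

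Igf1, the ligand that carries most growth hormone action and is also made locally in tissues, was higher after bleomycin. With the control blocker its log2 signal was 10.81 at the lowest, 10.94 at the median and 11.28 at the highest of 6 bleomycin arrays, against 10.02 and 9.54 in the PBS arrays. Every bleomycin array lay above both PBS arrays. The log2 change was 1.21 (SE 0.237, adjusted p = 0.0213, limma), a 2.32-fold rise, with means of 10.99 ± 0.19 (SD, n = 6) after bleomycin and 9.78 ± 0.34 (n = 2) after PBS.

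In lungs given the CAV1 blocker, Igf1 ranged from 9.87 over a median of 10.68 to 10.98 in the 6 bleomycin arrays, against 9.44 and 9.93 in the PBS arrays. Here 5 of the 6 bleomycin arrays lay above both PBS arrays, and bleomycin CAV1 blocker array 1, at 9.87, lay between them. The log2 change was 0.90 (SE 0.237, adjusted p = 0.0963, limma). Without array 1 it was 1.04 and was called (adjusted p = 0.0057, limma). Of the 16 fits that each left out 1 array, that was the 1 fit in which Igf1 was called here. Averaged over the blockers the change was 1.05 (SE 0.168, adjusted p = 0.0026, limma), 2.08-fold.

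**Figure D1:**
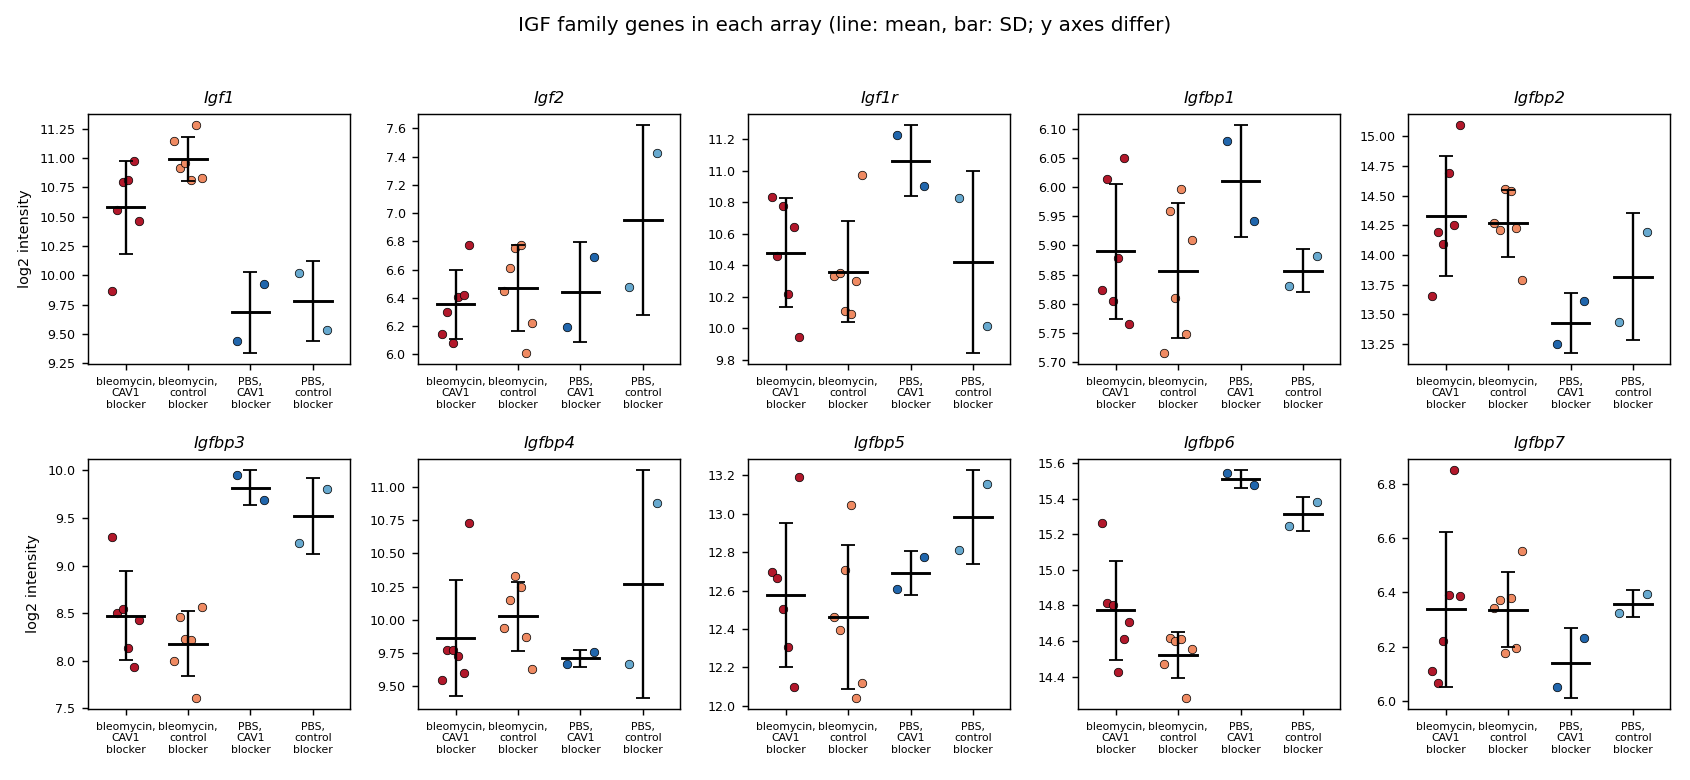
Log2 signal of each of the 10 family genes (y axes, which differ between panels) in every array, 1 point per array, by group on the x axis (bleomycin on the left and PBS on the right, each with the CAV1 blocker before the control blocker). Lines are means and bars SDs (n = 6, 6, 2 and 2). Igf1 lies higher, and Igfbp3 and Igfbp6 lower, in 11 of 12 bleomycin arrays than in all 4 PBS arrays.

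The 10 Igf1 spots did not all behave alike. They carry 2 transcript records, 8 spots with the first and 2 with the second. Spots of the first record changed by 0.79 to 1.40 with bleomycin under the control blocker, and 6 of the 8 were called when each spot was tested on its own. Their changes were 0.60 to 0.90 under the CAV1 blocker, where none was called, and 0.69 to 1.11 averaged over the blockers, where all 8 were. The pair of spots of the second record changed by -0.30 and -0.08 under the control blocker (adjusted p = 0.642 and 0.925, limma) and by 0.40 to 0.53 under the CAV1 blocker. One array set the first of these values apart: in PBS control blocker array 2 the second-record spots read 9.91 and 10.13, against 8.31 to 8.69 in the other 3 PBS arrays. In the same array the brightest first-record spot was the second lowest of the 16 arrays, at 9.54. The value reported for Igf1 is that of its brightest spot, which belongs to the first record. The mean of all 10 spots changed by 0.89 under the control blocker (adjusted p = 0.0243, limma) and by 0.81 averaged over the blockers (adjusted p = 0.0026, limma).

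**Figure D2:**
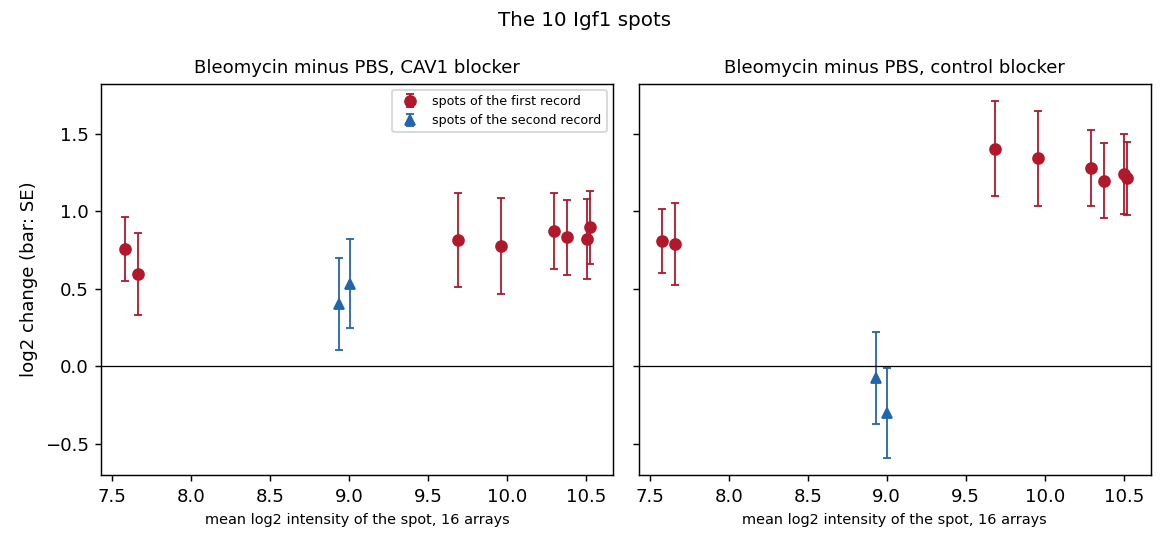
Log2 change of each of the 10 Igf1 spots (y axis, bars are SE) against the mean log2 signal of the spot over 16 arrays (x axis), for bleomycin minus PBS with the CAV1 blocker (left) and with the control blocker (right). All 8 first-record spots lie above 0 in both panels, and the second-record pair lies above 0 on the left and below it on the right.

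Igf2, the ligand best known from fetal growth, gave a low signal, and 6 of the 16 arrays had it above the array's median. With the control blocker it ranged from 6.01 to 6.77 in bleomycin arrays, against 6.48 and 7.43 in PBS arrays, a log2 change of -0.48 (SE 0.250, adjusted p = 0.366, limma). With the CAV1 blocker it ranged from 6.08 to 6.77 in bleomycin arrays, against 6.19 and 6.69 in PBS arrays, a change of -0.09 (adjusted p = 0.907). Groups overlapped in both comparisons. The value of 7.43 in PBS control blocker array 2 was the highest of all arrays.

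H19, a noncoding RNA that shares an imprinted control region with Igf2, varied much more than Igf2 did. It read 6.82 to 8.98 in 5 arrays and 10.98 to 13.18 in the other 11, and the 5 were those with low muscle and squamous markers. Igf2 read 6.08 to 6.69 in those 5 arrays and 6.01 to 7.43 in the other 11, so it did not separate them. Among the 27 further pathway genes H19 had the smallest p for bleomycin against PBS under the CAV1 blocker (log2 change 4.39, adjusted p = 0.135, limma) and for the interaction (5.70, adjusted p = 0.497), and neither was called. Both PBS arrays of the CAV1 blocker were among the 5 low ones, so the first of these values sets a bleomycin group with 5 of 6 arrays high against low arrays alone. The next smallest interaction p was that of Htra1, a secreted serine protease (-0.53, adjusted p = 0.497). The part of muscle tissue in these H19 values was not tested.

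Igf1r, the receptor for both ligands, was not called in any comparison. With the CAV1 blocker it ranged from 9.94 to 10.83 in bleomycin arrays, against 11.22 and 10.90 in PBS arrays, and the groups were separate. The change was -0.59 (SE 0.263, adjusted p = 0.311, limma), and separate groups with the bleomycin side lower were found for 12.3% of all genes in this comparison. With the control blocker it ranged from 10.09 to 10.97 in bleomycin arrays, against 10.83 and 10.01 in PBS arrays, a change of -0.06 (95% interval -0.62 to 0.50, adjusted p = 0.930). Without the one or the other of the PBS CAV1 blocker arrays the change was -0.43 or -0.75, and with the muscle list's level as a covariate it was -0.38 (adjusted p = 0.847). The difference between the changes under the 2 blockers, -0.52, did not pass the interaction test (adjusted p = 0.520).

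Igfbp3, which carries most circulating IGF together with the acid-labile subunit, had the largest negative change of the family in each bleomycin comparison. With the control blocker its log2 signal was 7.61 at the lowest, 8.22 at the median and 8.56 at the highest of 6 bleomycin arrays, against 9.24 and 9.81 in PBS arrays. Every bleomycin array lay below both PBS arrays. The gene fell by 1.35 on the log2 scale (SE 0.293, adjusted p = 0.0300, limma), 2.54-fold lower. Means were 8.18 ± 0.34 (SD, n = 6) after bleomycin and 9.52 ± 0.40 (n = 2) after PBS.

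In lungs given the CAV1 blocker, Igfbp3 ranged from 7.93 over a median of 8.46 to 9.30 in bleomycin arrays, against 9.95 and 9.69 in PBS arrays. The groups were again separate, and the highest bleomycin value was that of array 1. The log2 change of -1.35 (SE 0.293) had an adjusted p of 0.0525 (limma), just above the threshold. Without array 1 it was -1.51 (adjusted p = 0.0029, limma). The gene was called here in 3 of the 16 fits that each left out 1 array. Igfbp3 averaged over the blockers fell by 1.35 (SE 0.207, adjusted p = 0.0024, limma), and 7 of the 20304 genes had a more negative change.

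Igfbp6, a binding protein that prefers IGF-II, fell with bleomycin by less but with less spread. With the control blocker it read 14.28 at the lowest, 14.58 at the median and 14.62 at the highest of 6 bleomycin arrays, against 15.25 and 15.38 in PBS arrays. It fell by 0.79 on the log2 scale (SE 0.158, adjusted p = 0.0225, limma), 1.73-fold lower, with separate groups. With the CAV1 blocker it read 14.43 at the lowest, 14.76 at the median and 15.26 at the highest of 6 bleomycin arrays, against 15.55 and 15.47 in PBS arrays. The groups were separate there too, array 1 again being the highest bleomycin array. The change was -0.74 (SE 0.158, adjusted p = 0.0506, limma), and -0.84 without array 1 (adjusted p = 0.0014). Igfbp6 was called here in 3 of the 16 fits that each left out 1 array. Averaged over the blockers it fell by 0.77 (SE 0.111, adjusted p = 0.0020, limma).

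In each of these 3 genes the groups fell into the same order, with both bleomycin groups on one side and both PBS groups on the other. Igf1 was highest with bleomycin and the control blocker (mean 10.99), followed by bleomycin with the CAV1 blocker (10.58), PBS with the control blocker (9.78) and PBS with the CAV1 blocker (9.68). Igfbp3 and Igfbp6 ran the other way, with 8.18 and 14.52 as their means at one end, bleomycin with the control blocker, and 9.82 and 15.51 at the other, PBS with the CAV1 blocker. Neighbours in this order that received the same agent, bleomycin or PBS, did not pass the test against each other.

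Igfbp2, abundant in many tissues as a carrier of both ligands, had its highest values after bleomycin but was not called. With the CAV1 blocker it ranged from 13.65 to 15.10 in bleomycin arrays, against 13.25 and 13.61 in PBS arrays. These groups were separate, as were those of 8.38% of all genes with the bleomycin side higher, and the change was 0.90 (SE 0.303, adjusted p = 0.173, limma). It was 0.72 or 1.08 without the one or the other of these PBS arrays, and 0.79 with the muscle list's level as a covariate (adjusted p = 0.626). With the control blocker it ranged from 13.79 to 14.56 in bleomycin arrays, against 13.44 and 14.20 in PBS arrays, a change of 0.45 (adjusted p = 0.497). Averaged over the blockers the change was 0.67 (SE 0.214, adjusted p = 0.0841, limma). The other Igfbp2 spot gave 0.71 averaged over the blockers and was called when spots were tested one by one (adjusted p = 0.0303).

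Igfbp4 and Igfbp5, the main substrates of the pappalysins, were not called in any comparison of the 4 groups. Igfbp4 ranged from 9.55 to 10.33 in 14 arrays and read 10.73 in bleomycin CAV1 blocker array 6 and 10.88 in PBS control blocker array 2. Its change was -0.24 with the control blocker (95% interval -0.89 to 0.41, adjusted p = 0.726, limma) and 0.15 with the CAV1 blocker (-0.50 to 0.80, adjusted p = 0.861). Igfbp5 was also highest in those arrays, at 13.19 and 13.16, and changed by -0.52 with the control blocker (95% interval -1.08 to 0.03, adjusted p = 0.349) and by -0.11 with the CAV1 blocker (adjusted p = 0.880). Igf1r was lowest in the same 2 arrays, at 9.94 and 10.01.

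Igfbp1, a liver-made binding protein regulated by insulin, lay near the bottom of the scale, at 5.72 to 6.08 in all arrays, and 4 of 16 arrays had it above their 25th percentile. Igfbp7, a low-affinity relative found in vessels, lay at 6.05 to 6.85, with 2 arrays above their median. Igfbp7 is known as an abundant transcript of the lung, and whether its single spot works was not tested, so this reading is not given as a low expression of the gene. Both changes with bleomycin were small, 0.00 for Igfbp1 and -0.02 for Igfbp7 with the control blocker, and -0.12 and 0.20 with the CAV1 blocker (adjusted p = 0.613 or more, limma). At such signals the spots limit what can be read, and a change of either gene was not detectable here.

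**Figure D3:**
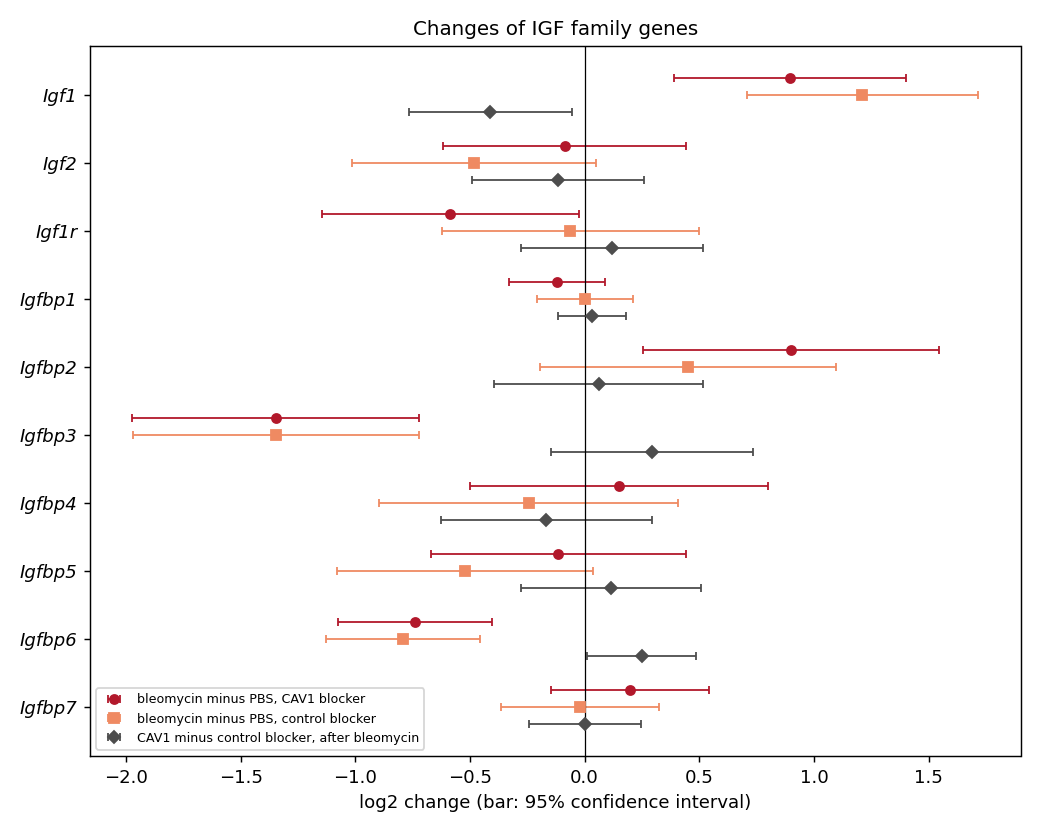
Log2 change of each family gene (x axis) with its 95% confidence interval, for bleomycin minus PBS with the CAV1 blocker (circles) and with the control blocker (squares), and for the CAV1 blocker minus the control blocker after bleomycin (diamonds). The bleomycin intervals of Igf1, Igfbp3 and Igfbp6 leave out 0 with either blocker, as do those of Igf1r and Igfbp2 with the CAV1 blocker. The intervals of Igf1 and Igfbp6 between the blockers after bleomycin leave out 0 too. Intervals are not adjusted for the number of genes. After adjustment, Igf1, Igfbp3 and Igfbp6 were called for bleomycin with the control blocker, and no family gene was called in the other comparisons shown.

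The calls under the control blocker were lost without array 2 of PBS with that blocker, which left array 1 alone in its group. With the spread then taken from the other groups, Igf1 changed by 0.97, Igfbp3 by -1.06 and Igfbp6 by -0.72. Without PBS control blocker array 1 the Igf2 change was -0.96. Array 2, with the highest Igf2 of all, then stood alone for its group, with a spread taken from the other groups. With array 2 left out instead, the Igf2 change was -0.01. Without bleomycin control blocker array 1, Igfbp3 came to an adjusted p of 0.0648. Averaged over the blockers, Igf1, Igfbp3 and Igfbp6 were called whichever of the 16 arrays was left out, and Igfbp2 was called as well without bleomycin CAV1 blocker array 1 (0.74, adjusted p = 0.0285) or without PBS control blocker array 2 (0.86, adjusted p = 0.0493).

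Markers of other cell types moved with bleomycin alongside these genes. Of 8 markers of monocyte-derived macrophages, 5 were called higher with the control blocker, 1 with the CAV1 blocker and 6 averaged over both. None was called lower. They had a median change of 1.38 with the control blocker, all 8 positive and 7 with an unadjusted p under 0.05. With the CAV1 blocker they had 1.34, 7 positive and 1 negative, and 6 had an unadjusted p under 0.05. Their mean log2 signal was 9.88 to 11.50 in bleomycin CAV1 blocker arrays, 11.39 to 11.78 in bleomycin control blocker arrays, 9.59 to 9.67 in PBS CAV1 blocker arrays and 10.14 to 10.30 in PBS control blocker arrays. Bleomycin CAV1 blocker array 1, the one bleomycin array whose Igf1, Igfbp3 and Igfbp6 all lay near the PBS arrays, had 9.88, against 10.98 to 11.78 in the other 11 bleomycin arrays. All 8 markers lay above the array's median in every array. Fibroblast markers went both ways, with 4 of 7 changes positive and 3 negative under either blocker. Of the 7, 2 rose with the control blocker, none was called with the CAV1 blocker, and averaged over both, the collagen genes Col1a1 (1.03), Col1a2 (0.70) and Col3a1 (0.92) rose and the receptor gene Pdgfra fell by 0.39. The mean of that list was 13.03 to 13.32 in bleomycin CAV1 blocker arrays and 13.30 to 13.47 in bleomycin control blocker arrays, against 12.69 to 13.20 with PBS and the CAV1 blocker and 12.71 to 13.16 with PBS and the control blocker. Of 6 endothelial markers, none was called with the control blocker, 1 was called lower with the CAV1 blocker and 1 averaged over both. They had a median change of -0.45 with the control blocker, all 6 negative and 3 with an unadjusted p under 0.05. With the CAV1 blocker they had -0.32, 5 negative and 1 positive, and averaged over both -0.34, all 6 negative. Their mean was 12.51 to 13.10 and 12.45 to 12.91 in bleomycin arrays with the CAV1 and the control blocker, against 13.04 to 13.09 and 12.88 to 13.36 in PBS arrays with the CAV1 and the control blocker. All fibroblast and endothelial markers lay above the array's median in every array. The 7 adipocyte markers had a median change of -1.41 with the control blocker, all 7 negative and 5 with an unadjusted p under 0.05, of -0.58 with the CAV1 blocker, 6 negative, and of -0.98 averaged over both, and none was called. Their mean was 9.14 to 11.26 and 9.21 to 10.42 in bleomycin arrays with the CAV1 and the control blocker, against 10.20 to 10.93 and 11.07 to 11.52 in PBS arrays with the CAV1 and the control blocker, and 1 of the 7 lay below the array's median in every array. The 12 skeletal muscle markers had a median change of -1.88 with the control blocker, all negative, and of 3.12 with the CAV1 blocker, all positive. The 11 squamous markers ran the same way, at -0.92 and 2.90, and no marker of either list was called. Of 6 hepatocyte markers, Ahsg alone was called, higher with the control blocker (1.02) and averaged (0.76). None of 5 smooth muscle markers was called. The part of these cell types in the family's values was not tested.

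RNA integrity moved with the same genes within 1 group. The bleomycin control blocker arrays with an integrity number of 10, arrays 1 and 5, had the highest Igf1 of their group (11.15 and 11.28), the lowest Igfbp3 (7.99 and 7.61) and the lowest Igfbp6 (14.47 and 14.28). Igf1 stayed called without array 1 (adjusted p = 0.0486, limma) or without array 5 (0.0375), while Igfbp3 lost its call without array 1 (adjusted p = 0.0648) and kept it without array 5 (0.0493), and Igfbp6 had an adjusted p of 0.0497 without array 1 and 0.0375 without array 5. The part of RNA integrity was not tested further. With the muscle list's level as a covariate, the changes under the control blocker were 1.20 for Igf1 (adjusted p = 0.0480), -1.49 for Igfbp3 (0.0435) and -0.79 for Igfbp6 (0.0488), and all remained called.

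The comparison of the CAV1 blocker with the control blocker after bleomycin asks whether the injured lung differed with the blocker of the Cav1 site. No family gene was called, where 1.61% of all genes were, and 2 of 10 had an unadjusted p under 0.05, beside 9.08% of all genes. The 2 groups were separate for no member, and for 2.33% of all genes. Igf1 differed by -0.41 (SE 0.168, unadjusted p = 0.0269, adjusted p = 0.433, limma), with a 95% interval of -0.77 to -0.05. Igfbp6 differed by 0.25 (SE 0.111, unadjusted p = 0.0407, adjusted p = 0.515), with an interval of 0.01 to 0.49. Igfbp3 differed by 0.29 (95% interval -0.15 to 0.74, adjusted p = 0.820). The 8 macrophage markers had a median difference of -0.67 in this comparison, with 1 called lower. All 3 differences were smaller without bleomycin CAV1 blocker array 1, by over 1.5 times. Without that array the Igf1 difference was -0.27 (adjusted p = 0.695), that of Igfbp6 was 0.15 (adjusted p = 0.790) and that of Igfbp3 was 0.13 (adjusted p = 0.969). Cav1 itself, whose transcript the blocker targets, differed by 0.24 after bleomycin (adjusted p = 0.642) and by 0.09 after PBS, and was not called.

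After PBS, the CAV1 blocker against the control blocker gave no family call (0.31% of all genes were called) and no family gene with an unadjusted p under 0.05, where 12.8% of all genes had one. The largest differences were 0.64 for Igf1r (adjusted p = 0.407, limma), -0.56 for Igfbp4 (0.471) and -0.51 for Igf2 (0.443). Without PBS control blocker array 1, array 2 alone stood for its group and its spread had to be taken from the other groups. Igfbp4 then differed by -1.17 and Igf2 by -0.99. Without array 2 the same differences were 0.05 for Igfbp4, with the sign turned, -0.03 for Igf2 and 0.24 for Igf1r, so they rested on that array. The interaction, the difference between the bleomycin changes under the 2 blockers, was called for no gene by limma (0% of 20304), while 9.22% had an unadjusted p under 0.05, and no family gene did. It was -0.32 for Igf1 (95% interval -1.03 to 0.40), -0.00 for Igfbp3 (-0.89 to 0.88) and 0.05 for Igfbp6 (-0.42 to 0.53). Intervals of this width do not show that the blockers acted alike. These comparisons share arrays with those of bleomycin against PBS, so their values are not independent of them.

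Among 27 other genes of the pathway, 2 were called with bleomycin under the control blocker, 1 in each direction, and 0 under the CAV1 blocker, where 7 had an unadjusted p under 0.05. Over all genes tested 2.41% were called under the control blocker and 0.517% under the CAV1 blocker, where 14.8% had such an unadjusted p. Pappa2, a protease that cuts Igfbp3 and Igfbp5, rose by 1.44 (SE 0.286, adjusted p = 0.0225, limma). It ranged from 7.98 over a median of 8.43 to 9.01 in bleomycin arrays, against 7.26 and 6.69 in PBS arrays, and the groups were separate. Without PBS control blocker array 2 the change was 1.15 and the call was lost (adjusted p = 0.237). Pappa2 with the CAV1 blocker ranged from 7.24 to 8.47 in bleomycin arrays, against 6.94 and 7.23 in PBS arrays, a change of 0.82 (adjusted p = 0.188). The array at 7.24 was again array 1. Pappa2 averaged over the blockers rose by 1.13 (adjusted p = 0.0047). The mean of its spots changed less, by 0.55 averaged over the blockers (adjusted p = 0.0056).

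Insr, the insulin receptor, which also pairs with Igf1r in hybrid receptors, fell by 0.40 under the control blocker (SE 0.0912, adjusted p = 0.0343, limma), with 8.30 to 8.58 in bleomycin arrays against 8.73 and 8.93 in PBS arrays. That call was lost in 4 of 16 fits that left out an array, those without PBS control blocker array 2 (-0.31, adjusted p = 0.333) or without bleomycin control blocker array 1, 3 or 5. The change was -0.26 with the CAV1 blocker (adjusted p = 0.198), and averaged over the blockers it fell by 0.33 (adjusted p = 0.0074), a call lost without PBS CAV1 blocker array 1 (adjusted p = 0.0579). Its spots differed: their mean changed by -0.19 under the control blocker and was not called (adjusted p = 0.195), and it was higher with the CAV1 blocker than with the control blocker after bleomycin, by 0.40 (adjusted p = 0.000437), where the brightest spot differed by 0.05 (adjusted p = 0.936). Igf2r, the clearance receptor of IGF-II, rose by 0.26 averaged over the blockers (adjusted p = 0.0356), and Igf2bp1, an RNA-binding protein of Igf2 transcripts, fell by 0.24 (adjusted p = 0.0377). Both calls were lost when certain single arrays were left out, 10 arrays for Igf2r and 8 for Igf2bp1. Averaged over the blockers, 4 of the 27 genes were called, 2 in each direction, beside 5.93% of all genes (4.25% higher and 1.68% lower). No other pathway gene, Igfals, Pappa and the substrates Irs1 and Irs2 included, was called for bleomycin.

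Pik3r1 is the regulatory subunit of the PI3 kinase that acts below Igf1r and many other receptors. It was the 1 pathway gene of 27 called between the blockers after bleomycin, where 1.61% of all genes were called (1.2% higher). Of the 27, Pik3r1 alone was also called after PBS, where 0.31% of all genes were. After bleomycin it ranged from 8.51 over a median of 8.65 to 8.76 with the CAV1 blocker and from 7.61 over a median of 7.80 to 7.89 with the control blocker. The groups were separate, as for 1.5% of all genes with the CAV1 blocker higher, and the difference was 0.87 (SE 0.0788, adjusted p = 1.95e-05, limma), a 1.83-fold higher signal with the CAV1 blocker. It stayed between 0.84 and 0.90, and called, whichever array was left out. After PBS it read 8.54 and 8.69 with the CAV1 blocker, against 8.16 and 7.70 with the control blocker, a difference of 0.69 (adjusted p = 0.0465), where 0.276% of all genes were called higher. That call was lost in most of the alternatives, and without PBS control blocker array 2 the difference was 0.46 (adjusted p = 0.202). Bleomycin itself left no called change in Pik3r1, with -0.15 under the control blocker (adjusted p = 0.536) and 0.03 under the CAV1 blocker (adjusted p = 0.926). Pik3r1 has 1 spot on the array, so no second spot bears on the value.

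**Figure D4:**
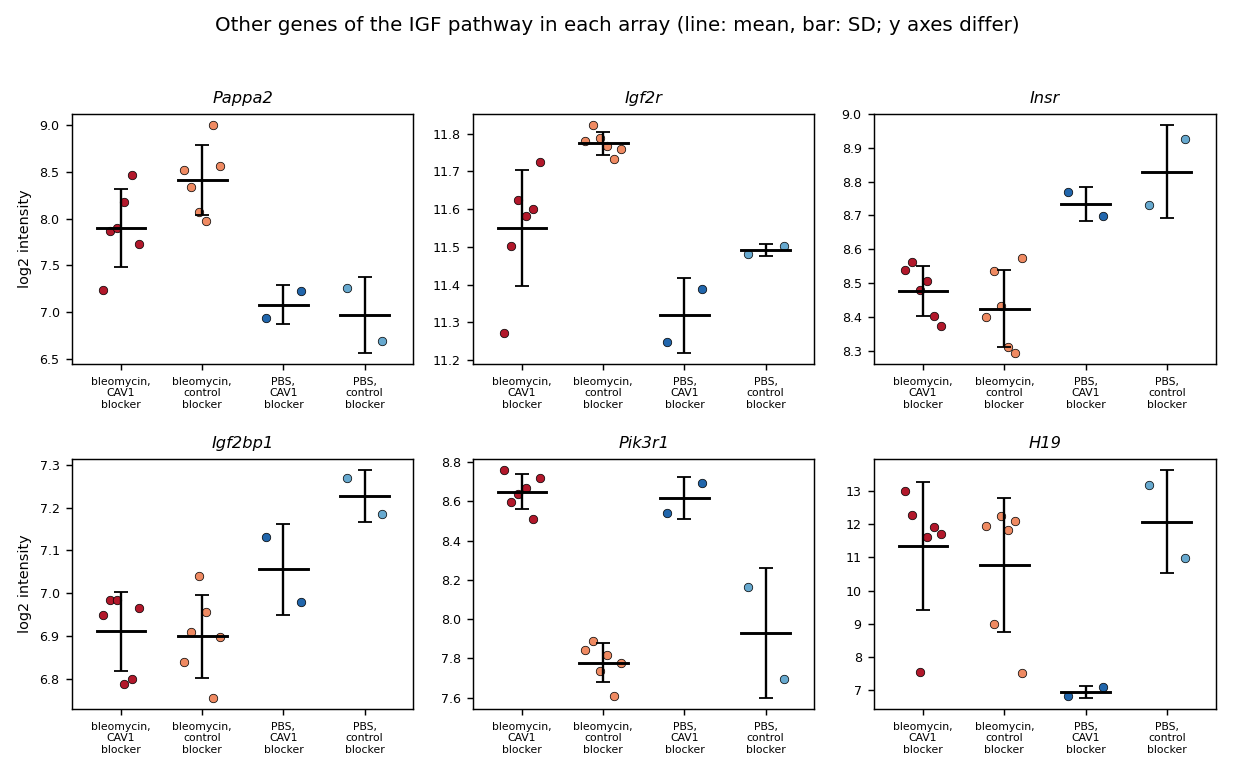
Log2 signal (y axes, which differ between panels) of 6 other pathway genes in every array, by group on the x axis, with group means (lines) and SDs (bars, n = 6, 6, 2 and 2). Pappa2 lies higher and Insr lower after bleomycin, Pik3r1 lies at 8.51 to 8.76 in bleomycin CAV1 blocker arrays against 7.61 to 7.89 in bleomycin control blocker arrays, and H19 lies at 6.82 to 8.98 in 5 arrays and at 10.98 to 13.18 in 11.

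Within the bleomycin groups, family members varied together from array to array. For each of the 45 pairs of members, correlations were taken over the 12 bleomycin arrays after subtracting each blocker group's mean. Pearson's r of 9 pairs passed a permutation test adjusted over the 45. The share of pairs that would pass among all genes was not computed, so this count is not given as a trait of the family. Igf1 and Igfbp3 had r = -0.90 (permutation p = 0.00053, adjusted p = 0.0105) and Spearman's rho = -0.77 (permutation p = 0.00603, adjusted p = 0.0904). This was -0.93 within the CAV1 blocker arrays and -0.90 within the control blocker arrays (n = 6 each), and -0.76 without the 2 arrays farthest from the median of Igf1, bleomycin CAV1 blocker arrays 1 and 5. Arrays with more Igf1 signal thus had less Igfbp3 signal under either blocker, in the same direction as the difference between bleomycin and PBS.

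Igfbp3 and Igfbp6 varied in the same direction, with r = 0.90 (permutation p = 0.00112, adjusted p = 0.0105), rho = 0.82 (permutation p = 0.00234, adjusted p = 0.0526) and r = 0.76 without the 2 farthest arrays. Igf1 and Igfbp6 had r = -0.87 (permutation p = 0.0042, adjusted p = 0.0222) and rho = -0.73 (permutation p = 0.0107, adjusted p = 0.0949), and -0.70 without the 2 farthest arrays. The closest pair was Igf1r and Igfbp2, with r = -0.93 (permutation p = 4e-05, adjusted p = 0.0018) and rho = -0.94 (permutation p = 0.00022, adjusted p = 0.0099). It had -0.95 within the CAV1 blocker arrays, -0.97 within the control blocker arrays, and -0.92 without bleomycin CAV1 blocker array 6 and bleomycin control blocker array 6. This was the one pair of the 9 that also passed on ranks after adjustment. Igfbp4 varied with Igfbp2 (r = 0.83), Igf2 (0.78) and Igfbp5 (0.78) and against Igf1r (-0.81), and Igf2 varied with Igfbp2 (0.75), each with an adjusted p of 0.0222 or less.

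**Figure D5:**
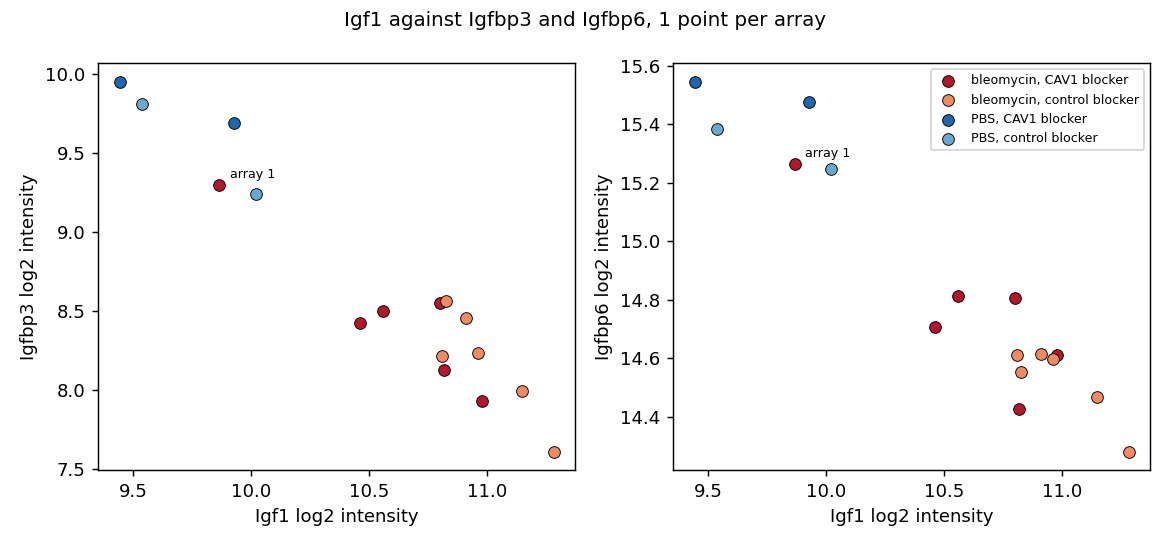
Igf1 log2 signal (x axes) against that of Igfbp3 (left) and Igfbp6 (right), 1 point per array, coloured by group. The 4 PBS arrays lie at the upper left, 11 bleomycin arrays at the lower right, and bleomycin CAV1 blocker array 1 (labelled) beside the PBS arrays.

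Among the genes tested, with unnamed gene models skipped, those most like each member over the 16 arrays were found by Pearson's r. This r includes the differences between the 4 groups. For Igf1 these were Slc26a4 (r = 0.981), an anion exchanger, Tuba1c (0.978), an alpha-tubulin, and Ctsh (0.973), a lysosomal protease. For Igfbp3 the closest of the genes ranked was another member, Igfbp6 (0.971), followed by Smim11 (0.968) and Ms4a4d (0.966). For Igfbp6 they were Acvrl1 (0.973), a receptor of the TGF-beta superfamily, Hes2 (0.973) and Igfbp3. For Igf1r they were Rbms3 (0.978) and the histone methyltransferases Kmt2c (0.975) and Kmt5b (0.973). For Igfbp2 they were Pidd1 (0.965), Siglec1 (0.959), a macrophage lectin, and Iqgap3 (0.954). For Igfbp4 they were Bcl7c (0.971), Zfp385a (0.965) and Rnps1 (0.965), for Igfbp5 Adgrd1 (0.943), Gstz1 (0.929) and Upk3b (0.908), and for Igf2 Pafah2 (0.946), Sox1 (0.937) and Ulk3 (0.930). The members with the lowest signals had looser matches, with Dchs2 (0.822), Actrt2 (0.722) and Ctag2 (0.721) for Igfbp1, and Vmn1r13 (0.858), Olfr139 (0.841) and Olfr1509 (0.813) for Igfbp7. Igfbp3 has Igfbp1 as its neighbour on chromosome 11, and Igfbp2 has Igfbp5 on chromosome 1, and neither neighbour was among these matches.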

How the data were processed

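Whole-lung RNA of 16 samples in 4 groups was read from the series' value table. The deposited values are log2 intensities made with limma, per the submitters' processing notes (version, background correction, slide and scan date not given in the sources used here), and were analysed without further normalization or detection marks. Spots were named from the platform annotation, updated through RefSeq accessions: 31465 of 62976 spots had 1 symbol and 31511 none, 29036 matched, 2933 symbols changed and 2429 had no match. The brightest spot stood for a gene, and genes above the array's 25th percentile in at least 2 arrays were tested.

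With limma 3.58.1 in R 4.3.3 (lmFit, eBayes, 12 residual degrees of freedom), a mean for every group was estimated from the 16 arrays together, two-sided, with Benjamini-Hochberg adjustment over 20304 genes. The fit was tested on simulated data. Correlations used 100000 permutations within blocker groups. Named genes were the 10 members, Cav1, pathway genes called in a comparison (where none was, the 2 of smallest p), and the 3 genes most like each member. The members and lists were chosen with earlier results of these data known. Alternatives covered the dim filter, spot summary, normalization, moderation, array weights, samples fitted, replicate block, tissue covariates and each array left out.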

Additional observations from a re-analysis of the deposited data

Results flagged for a closer look

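Single far arrays were sought by Dixon's criterion in both bleomycin groups, for the 10 family genes and 5 called pathway genes, 30 tests in all. A pair of arrays passed, and chance alone would flag about 1 in 20 such groups. Igf1r read 10.97 in bleomycin control blocker array 6, above 10.09 to 10.35 in the other 5 arrays of that group. Igfbp4 read 10.73 in bleomycin CAV1 blocker array 6, above 9.55 to 9.78 in the other 5. In the same array Igf1r was the lowest of all arrays, at 9.94, and Igfbp2 the highest, at 15.10.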

How the results depend on the processing

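The count of family genes called with bleomycin under the control blocker, 3, became 0 with array weights and 0 with the replicate block. It was also 0 without PBS control blocker array 2 and bleomycin CAV1 blocker array 6 together, and 2 without bleomycin control blocker array 1. The count moved as well where a single PBS control blocker array stood alone in its group, up without array 1, while the calls were lost without array 2. With array weights, 5 family genes and 2712 of all genes were called under the CAV1 blocker, against 0 and 105 without weights. The PBS arrays then weighed 1.91 with the CAV1 blocker and 0.26 with the control blocker. Under the CAV1 blocker the count of 0 also became 2 with the filter at the 50th percentile and 1 with the mean of a gene's spots. The count was 1 with trended and robust moderation, and 2 with the muscle covariate and no bleomycin CAV1 blocker array 1. It ranged from 0 to 3 when single arrays were left out (3 without bleomycin CAV1 blocker array 1, 2 without either PBS control blocker array). The average over the blockers gave 3, 0 with the replicate block and 3 to 4 when single arrays were left out. After PBS the count of 0 moved only without PBS control blocker array 1, which left array 2 alone in its group. After bleomycin and for the interaction it was 0 in every alternative run. The removal of a pair of arrays and of array 1 with the muscle covariate were chosen after seeing the data. No value of a family gene that was called changed sign. The cause of these shifts was not tested.

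With the replicate number as a block, the average over the blockers gave Igf1 0.89 (adjusted p = 0.183, limma), Igfbp3 -1.11 (0.170) and Igfbp6 -0.62 (0.175). Whether the numbers pair the samples is not stated. Of 16 same-numbered pairs, 6 deviated together (r over 0.1). Closest to their own number were 2 of 6 bleomycin CAV1 blocker arrays and 1 of 6 bleomycin control blocker arrays. In a PBS group of 2 arrays the deviations mirror each other, so these values do not settle the pairing.

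Counts over all genes moved more. The 489 of the control blocker became 0 with array weights, 215 with the compared arrays only, 1 with the block, 236 and 264 with the muscle and squamous covariates, 105 without the pair of arrays, and 91 to 4075 without single arrays. The 105 of the CAV1 blocker became 164 with the 50th percentile filter, 2712 with array weights, 0 with the compared arrays only, 0 with the block, 10 and 7 with the covariates, 217 without the pair, 158 with the muscle covariate and no array 1, and 10 to 719 without single arrays. The averaged 1204 became 367 with array weights, 9 with the block and 385 to 1923 without single arrays. The 327 after bleomycin became 573 with each spot on its own, 593 with array weights and 212 with the block, and was 249 to 394 without single arrays. The 63 after PBS became 157 with each spot on its own, 2 with array weights, 3 with the compared arrays only, 14 with the block, 4 and 5 with the covariates, 220 without the pair, 0 with the muscle covariate and no array 1, and 34 to 4024 without single arrays. The interaction's 0 became 45 without the pair and 0 to 3011 without single arrays. Signals near the floor limit Igfbp1, Igfbp7 and Igf2.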
